A study of Mus musculus with 20 samples.

Results

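The transcripts described are those of 2 epithelial alarmins and their receptors: Tslp and Il33, which encode the alarmins TSLP and IL-33, Crlf2, Il1rl1 and Il1rap, which encode receptor chains for them, and Il17rb, which encodes the receptor chain for the related alarmin IL-25. The 6 genes were chosen by name out of 16669 genes measured, with earlier results of these data known. All 6 passed the filter on low values that left 16461 genes for testing. Bulk RNA-seq was run on mouse ear pinnae injected intradermally on the right side. The 4 groups, with 5 libraries each, received IL-4, IL-13 or IL-31 (R&D Systems, each 10 µl of 0.1 µg/µl in PBS) or PBS alone. IL-4 and IL-13 drive type 2 inflammation through receptors that share the chain IL-4Rα, and IL-31, a cytokine linked to itch, acts through IL-31RA and the oncostatin M receptor. The sources used here do not give the strain, the age and sex of the mice, the PBS volume, the time of harvest or whether each library is 1 animal. A p-value therefore describes the spread between libraries, which may in part be technical.

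TSLP and IL-33 are released or secreted by barrier cells, chiefly keratinocytes in skin, on injury, protease or allergen contact, and both act on cells of type 2 immunity. TSLP binds a receptor made of CRLF2 and the IL-7 receptor chain and signals through JAK kinases and STAT5, while IL-33 binds ST2, the product of Il1rl1, which pairs with the accessory chain IL1RAP and signals through MyD88 to NF-κB. IL-25 binds IL-17RB together with IL-17RA and signals through the adaptor Act1. Mast cells, group 2 innate lymphoid cells, regulatory T cells and basophils are the cells best known for ST2, and Il1rl1 also gives a shorter transcript for a soluble decoy form that lacks the membrane anchor.

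Il1rl1 and Il33, a receptor and its ligand, each have a pair of promoter windows in the RefSeq table, and the deposited gene-level values add up the transcripts from both. Their 250 bases upstream of each start are shown because Il1rl1 is the gene of the set that passed the test and because a value cannot be assigned to either start. They were taken from RefSeq for GRCm38.p6, and 5 of the 6 genes have windows in that table. The windows lie at chr1:40429320-40429569 and chr1:40439379-40439628 for Il1rl1 and at chr19:29924863-29925112 and chr19:29945540-29945789 for Il33, all on the plus strand. Capitals mark matches, on either strand, to GATA (read as TATC on the other strand) and to a STAT6-type motif, TTC and GAA with 4 bases between them.
Il1rl1, the first start: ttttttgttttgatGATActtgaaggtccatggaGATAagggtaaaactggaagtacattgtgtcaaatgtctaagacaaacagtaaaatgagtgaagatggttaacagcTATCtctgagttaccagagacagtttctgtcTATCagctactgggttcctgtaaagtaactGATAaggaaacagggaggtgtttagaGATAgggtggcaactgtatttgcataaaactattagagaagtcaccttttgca
Il1rl1, the second start: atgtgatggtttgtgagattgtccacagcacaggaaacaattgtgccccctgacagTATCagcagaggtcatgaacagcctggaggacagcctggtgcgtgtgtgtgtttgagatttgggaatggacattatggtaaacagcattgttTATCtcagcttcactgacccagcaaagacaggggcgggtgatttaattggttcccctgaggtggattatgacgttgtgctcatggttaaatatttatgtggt
Il33, the first start: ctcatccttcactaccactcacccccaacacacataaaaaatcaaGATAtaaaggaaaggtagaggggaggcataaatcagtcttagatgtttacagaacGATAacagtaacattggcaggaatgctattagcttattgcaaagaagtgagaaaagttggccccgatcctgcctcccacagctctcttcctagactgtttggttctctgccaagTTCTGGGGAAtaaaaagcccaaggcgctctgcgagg
Il33, the second start: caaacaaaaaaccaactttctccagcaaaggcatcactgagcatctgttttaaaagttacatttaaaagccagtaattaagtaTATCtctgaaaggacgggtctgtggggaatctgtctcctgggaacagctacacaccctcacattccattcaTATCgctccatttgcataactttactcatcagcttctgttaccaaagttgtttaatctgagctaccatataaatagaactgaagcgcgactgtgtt
The first Il1rl1 window held 6 matches to GATA and the second held 2. Each Il33 window held 2, and the first also held 1 match to the STAT6-type motif and 1 to TATAAA, the second 1 to TATAAA. Searches on both strands covered these motifs, TTCNNNGAA (STAT-type), TGANTCA (AP-1-type) and CACGTG, with the last 3 not matched in these windows. Of 32851 promoter windows of the same length, 53.62% held GATA, 5.85% the STAT6-type motif, 7.02% TTCNNNGAA, 6.75% TGANTCA, 6.02% CACGTG and 12.37% TATAAA. The window of Crlf2 held 1 match to GATA, that of Il17rb 1 match to TGANTCA and that of Il1rap no match to any of the 6 motifs. A match describes letters and is not evidence of binding.

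Levels are in log2 CPM, the log2 of counts per mega-reads (M) with a small offset, as deposited. The effective size of a library, estimated from the steps between low values, was 10.6 ± 2.97 M reads in IL-4, 13.3 ± 0.381 in IL-13, 16.2 ± 4.29 in IL-31 and 11.2 ± 1.39 in PBS (SD, n = 5 each). Markers of the labelled tissue were present in every library, with 23279 to 38795 CPM summed over 7 basal keratinocyte genes and 198 to 414 CPM over 6 cartilage genes. The PBS libraries differed among themselves more than the others did: PBS had the largest of the 4 group SDs for 61.69% of tested genes. PBS libraries 1, 2 and 3 were low in 12 markers of differentiated keratinocytes, with summed levels of 6039, 5368 and 3693 CPM, against 28710 and 27813 CPM in PBS libraries 4 and 5. PBS libraries 1, 3 and 5 were high in 9 neutrophil markers, at 574, 1184 and 737 CPM, against 87.1 and 94.5 CPM in PBS libraries 2 and 4. Skeletal muscle markers, 10 genes, summed to 377 to 3479 CPM in IL-4, 850 to 3635 in IL-13, 1748 to 8031 in IL-31 and 6069 to 18504 in PBS.

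PBS library 5 stood apart in the alarmin genes themselves. It had the highest value of all 20 libraries for Crlf2, Il33, Il1rl1 and Il1rap and the lowest for Il17rb. That made it extreme for 5 of the 6 genes, while it was the highest or lowest library for 25.369% of all tested genes, 13.122% and 12.247% in the 2 directions. The alarmin results that rest on this library are given with and without it. It was singled out from these same values, so a pass gained without it is a description only. The gene-level values by library are in the plot of alarmin transcripts.

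**Figure D1:**
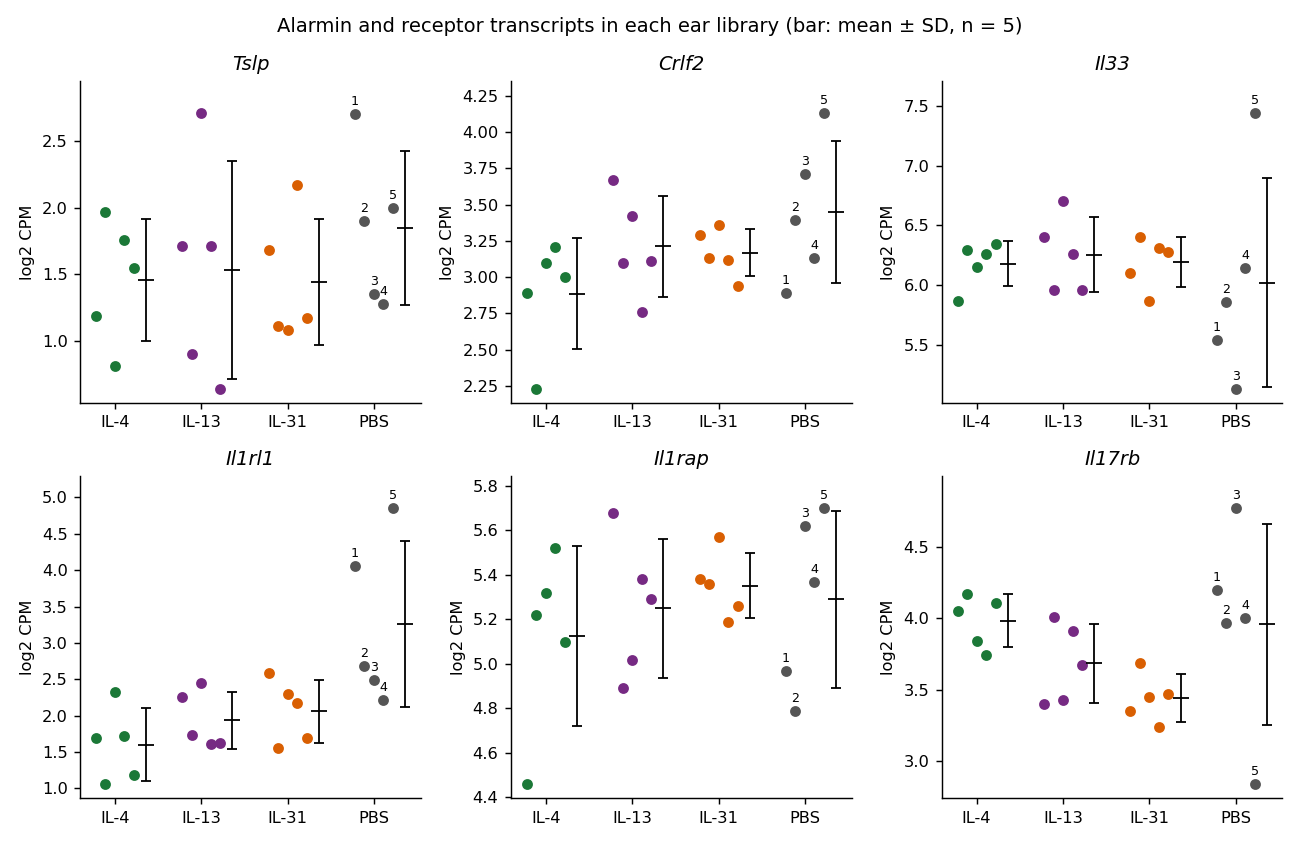
Levels of the 6 transcripts in log2 CPM (vertical axes, each on its own scale) in every library, grouped by injected solution. Points are libraries, bars are mean ± SD (n = 5), and PBS libraries carry their numbers; PBS library 5 is the highest of 20 for Crlf2, Il33, Il1rl1 and Il1rap and the lowest for Il17rb.

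Per kilobase of exon, Il33 was the most abundant of the 6 and Il1rl1 the least. The mean over 20 libraries was 4.63 log2 CPM per kb for Il33, 2.60 for Crlf2, 1.88 for Il17rb, 1.75 for Il1rap, 1.16 for Tslp and -0.57 for Il1rl1. Il17rb and Il1rap, neighbours in this order, lay within each other's range over libraries (0.95 to 2.88 for Il17rb and 0.95 to 2.19 for Il1rap), while the lowest library for Il33 (3.60) lay just above the highest for Crlf2 (3.55). Crlf2 (1.65 to 3.55) overlapped Il17rb, and Tslp (0.22 to 2.30) overlapped Il1rap. Il1rl1 had a range from -1.72 to 2.06. By depth these levels correspond to about 17 to 103 reads per library for Tslp and 13 to 334 for Il1rl1, against 422 to 2018 for Il33, so the counting error is largest for Tslp and Il1rl1.

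The comparison of each cytokine with PBS asks whether the cytokine alone alters alarmin or receptor transcripts in the ear. Il1rl1, the ST2 gene, fell in IL-4 and in IL-13, and it was the only one of the 6 genes to pass the test (limma, Benjamini-Hochberg adjusted p under 0.05 over all tested genes). Its level was 3.15-fold lower in IL-4 than in PBS and 2.50-fold lower in IL-13. None of the 6 genes passed in IL-31. The share of the set that passed, 1 of 6 in IL-4 and 1 of 6 in IL-13, is near that of all tested genes, of which 17.8% passed in IL-4 (8.22% higher, 9.63% lower) and 19.7% in IL-13 (9.94% higher, 9.8% lower). In IL-31, where 6.38% of tested genes passed (5.18% higher, 1.2% lower), 2 of the 6 genes (Il1rl1 and Il17rb) had an unadjusted p under 0.05, as had 23.8% of all tested genes. The 3 comparisons share the same 5 PBS libraries and so are not independent of each other. Both Il1rl1 calls were lost when only the 10 libraries compared were fitted, as given below.

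Among the ligands, Tslp (chromosome 18, 32815383 to 32819797, GRCm38, plus strand, protein-coding) had low levels that overlapped between all groups. It stood at 1.19, 1.97, 0.81, 1.76 and 1.55 log2 CPM in IL-4 libraries 1 to 5 and at 1.71, 0.90, 2.71, 1.71 and 0.64 in IL-13 libraries 1 to 5. In IL-31 libraries 1 to 5 it stood at 1.68, 1.11, 1.08, 2.17 and 1.17, against 2.70, 1.90, 1.35, 1.28 and 2.00 in PBS libraries 1 to 5. The highest libraries were IL-13 library 3 and PBS library 1, and the lowest was IL-13 library 5, so the IL-13 group alone spanned the range of all 20 libraries. The log2 fold change was -0.39 in IL-4 (95% interval -1.14 to 0.36, adjusted p = 0.496), -0.32 in IL-13 (-1.07 to 0.44, adjusted p = 0.571) and -0.41 in IL-31 (-1.16 to 0.34, adjusted p = 0.493). The intervals do not reach a 2-fold rise of Tslp in any of the 3 groups, and they include both no difference and a 2-fold fall.

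Il33 (chromosome 19, 29925114 to 29960718, plus strand, protein-coding), a nuclear cytokine of keratinocytes, endothelium and stromal cells, lay within a narrow band in the cytokine groups. It stood at 5.87, 6.29, 6.15, 6.26 and 6.34 log2 CPM in IL-4 libraries 1 to 5, at 6.40, 5.96, 6.70, 6.26 and 5.96 in IL-13 libraries and at 6.10, 6.40, 5.87, 6.31 and 6.28 in IL-31 libraries. In PBS libraries 1 to 5 it stood at 5.54, 5.86, 5.13, 6.14 and 7.44. PBS held both the highest and the lowest library, and its SD of 0.877 was above those of the cytokine groups (0.189 in IL-4, 0.315 in IL-13 and 0.21 in IL-31). The log2 fold change was 0.16 in IL-4 (95% interval -0.42 to 0.74, adjusted p = 0.74), 0.24 in IL-13 (-0.35 to 0.82, adjusted p = 0.591) and 0.17 in IL-31 (-0.41 to 0.75, adjusted p = 0.728).

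The Il33 comparison turned on which PBS libraries were kept. PBS library 5 was the highest of the 20 in Il33, so leaving it out lowers the PBS mean by construction. Without it, Il33 was higher in all 3 cytokine groups and each limma adjusted p was under 0.05. The log2 fold change was 0.51 in IL-4 (adjusted p = 0.0476), 0.59 in IL-13 (adjusted p = 0.0204) and 0.52 in IL-31 (adjusted p = 0.049). The share of all tested genes that passed also moved without that library, to 21.6% in IL-4, 28.6% in IL-13 and 18.4% in IL-31. PBS libraries 1, 2 and 3, which set the low side of Il33, are the libraries low in differentiated keratinocyte markers. Without those 3 the log2 fold change of Il33 was -0.61 in IL-4, -0.53 in IL-13 and -0.60 in IL-31, and none passed. With the mean score of the 12 markers as a covariate it was -0.50 in IL-4, -0.58 in IL-13 and -0.61 in IL-31, none called. The direction of the Il33 difference from PBS thus turned with these settings in all 3 groups.

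Among the receptors, Crlf2 (chromosome 5, 109554709 to 109558993, minus strand, protein-coding), the TSLP-binding chain, had its lowest mean in IL-4, where it did not pass the test. It stood at 2.89, 2.23, 3.10, 3.21 and 3.00 log2 CPM in IL-4 libraries 1 to 5, and at 3.67, 3.10, 3.42, 2.76 and 3.11 in IL-13 libraries. In IL-31 libraries it stood at 3.29, 3.13, 3.36, 3.12 and 2.94, against 2.89, 3.39, 3.71, 3.13 and 4.13 in PBS libraries. IL-4 library 2 was the lowest of the 20 and PBS library 5 the highest, and the groups overlapped. The log2 fold change was -0.56 in IL-4 (95% interval -1.03 to -0.10, limma adjusted p = 0.0859), -0.24 in IL-13 (adjusted p = 0.482) and -0.28 in IL-31 (adjusted p = 0.446). Without PBS library 1, whose Crlf2 was the lowest of its group, the IL-4 value was -0.70 and passed (adjusted p = 0.0379), and without PBS library 5 it was -0.39 and did not (adjusted p = 0.19).

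Il1rl1 (chromosome 1, 40429570 to 40465415, plus strand, protein-coding) showed the largest differences of the set. It stood at 1.70, 1.06, 2.33, 1.72 and 1.19 log2 CPM in IL-4 libraries 1 to 5, and at 2.26, 1.74, 2.45, 1.61 and 1.63 in IL-13 libraries. In IL-31 libraries it stood at 2.59, 1.55, 2.30, 2.17 and 1.69, against 4.05, 2.68, 2.49, 2.21 and 4.85 in PBS libraries. PBS libraries 1 and 5 lay far above the other 18 libraries, and PBS library 4 lay below the highest library of every cytokine group, so all groups overlapped. In IL-4 Il1rl1 averaged 1.60 ± 0.505, in IL-13 1.94 ± 0.389, in IL-31 2.06 ± 0.432 and in PBS 3.26 ± 1.14 log2 CPM (SD, n = 5 each).

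The log2 fold change of Il1rl1 was -1.65 ± 0.40 in IL-4 (SE; 95% interval -2.50 to -0.81, limma adjusted p = 0.00907) and -1.32 ± 0.40 in IL-13 (interval -2.16 to -0.48, adjusted p = 0.027). In IL-31 it was -1.20 ± 0.40 (interval -2.04 to -0.36), a 2.29-fold lower level that did not pass after adjustment (limma adjusted p = 0.0791). Each SE uses 1 spread per gene shared by the 4 groups, of which PBS had the largest SD (1.14). Fitted on only the 10 libraries compared, the SE in IL-4 was 0.48 and Il1rl1 did not pass (limma adjusted p = 0.0539). Il1rl1 did not pass in IL-13 in that setting either. The 3 cytokine groups did not pass against each other, and the value for IL-4 against IL-31 was -0.46 (interval -1.30 to 0.38). Fewer cells carrying Il1rl1 and less Il1rl1 RNA per cell cannot be told apart in bulk tissue, and neither can the membrane and soluble forms. The plot of differences from PBS shows the 6 genes with and without PBS library 5.

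**Figure D2:**
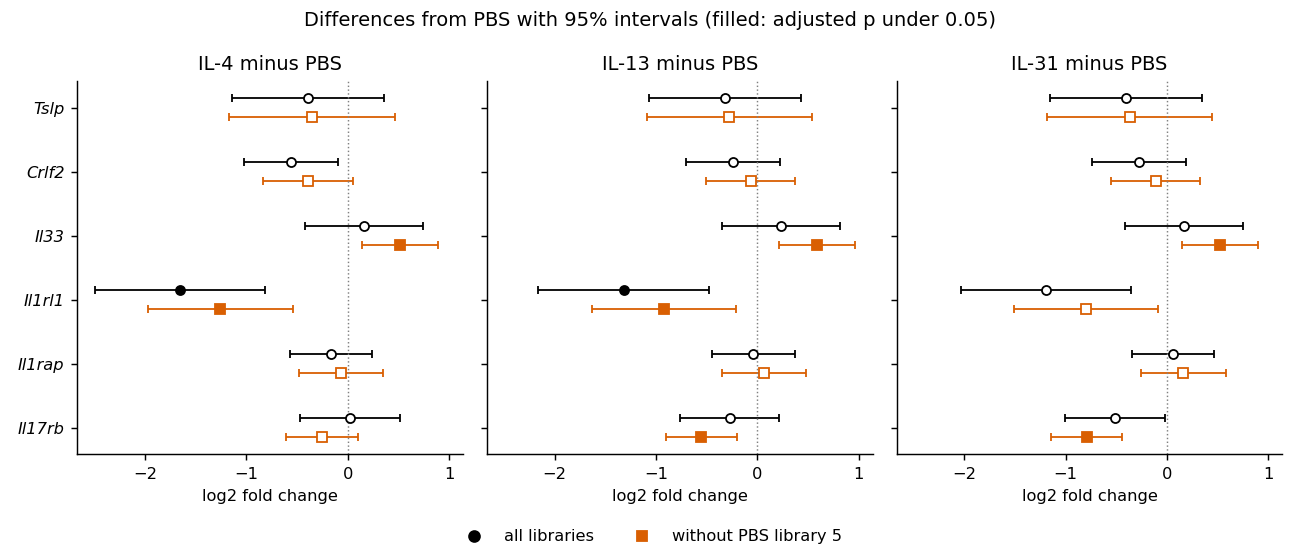
Log2 fold change against PBS (horizontal axes) with 95% intervals for the 6 genes, 1 panel per cytokine, with all libraries (circles) and without PBS library 5 (squares); filled symbols have an adjusted p under 0.05. With all libraries only Il1rl1 is filled, in IL-4 and IL-13. Without PBS library 5 Il1rl1 stays filled in IL-4 and IL-13. In that setting Il33 is filled to the right of 0 in all 3 panels, and Il17rb to the left in IL-13 and IL-31.

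The size of the Il1rl1 difference rested in part on PBS libraries 1 and 5. Without PBS library 5 the log2 fold change was -1.26 in IL-4 (adjusted p = 0.0139), -0.92 in IL-13 (adjusted p = 0.0496) and -0.80 in IL-31 (adjusted p = 0.107). Without PBS libraries 1 and 5 together, chosen after the values were seen, it was -0.86 in IL-4 (adjusted p = 0.055), -0.52 in IL-13 (adjusted p = 0.206) and -0.40 in IL-31 (adjusted p = 0.385). In that setting 17.5%, 24.1% and 11.8% of all tested genes passed in IL-4, IL-13 and IL-31. The IL-13 call was also lost without PBS library 1 (adjusted p = 0.0722), IL-13 library 4 (adjusted p = 0.0619) or IL-13 library 5 (adjusted p = 0.0622), and without PBS library 4 the IL-31 value of -1.46 passed (adjusted p = 0.0234). The sign against PBS was negative under each of the 27 alternatives run in each of the 3 comparisons.

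Markers of the cells known for ST2 gave these values beside Il1rl1. Of 10 tested mast cell genes none passed in any comparison with PBS with all libraries, and their median log2 fold change was -0.30 in IL-4, -0.60 in IL-13 and -0.20 in IL-31. When PBS library 5 was left out, 1 fell in IL-4 and 2 in IL-13, and without PBS libraries 1 and 5, 2 fell in IL-4 and 5 in IL-13, among them Kit, the receptor gene for stem cell factor, by 0.57 in IL-4 (adjusted p = 0.044) and 0.78 in IL-13 (adjusted p = 0.00833). None passed in IL-31 in either setting. Of all tested genes, 21.6% passed in IL-4 and 28.6% in IL-13 without PBS library 5, in either direction. Without PBS libraries 1 and 5, 17.5% and 24.1% passed. The summed level of the 10 genes was 143 to 203 CPM in IL-4, 113 to 277 in IL-13, 172 to 265 in IL-31 and 221 to 444 in PBS. The mean centred log2 score of the mast cell list was -0.06, 0.79, 0.28, 0.48 and 0.35 in PBS libraries 1 to 5, so PBS library 1, second highest in Il1rl1, had the lowest mast cell score of its group. With that score as a covariate, added after the data were seen, the Il1rl1 log2 fold change was -1.76 in IL-4 (adjusted p = 0.0779), -1.45 in IL-13 (adjusted p = 0.187) and -1.25 in IL-31 (adjusted p = 0.114).

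Of 11 tested genes of T cells and innate lymphoid cells, Rora passed as higher in IL-4, Rora and Gata3 in IL-13, none in IL-31, and none was lower. Of all tested genes, 8.22% were called higher in IL-4 and 9.94% in IL-13. The median of the 11 was -0.22 in IL-4, -0.14 in IL-13 and 0.17 in IL-31. Trbc2, a T cell receptor constant gene, and Thy1 passed as lower in IL-4 (-0.86, adjusted p = 0.0492, and -0.63, adjusted p = 0.0372) without PBS libraries 1, 2 and 3, beside Rora and Gata3 as higher. Rora also passed in IL-31 without PBS library 5 (0.38, adjusted p = 0.049). The summed level of the 11 genes was 753 to 837 CPM in IL-4, 711 to 843 in IL-13, 698 to 847 in IL-31 and 581 to 808 in PBS, and skin cells other than lymphocytes also express Rora and Gata3. These 2 genes, at means of 8.75 and 7.83 log2 CPM in IL-4, made up most of that sum. With the score of that list as a covariate, the Il1rl1 log2 fold change was -1.40 in IL-4 (adjusted p = 0.0289), -1.17 in IL-13 (adjusted p = 0.044) and -1.32 in IL-31 (adjusted p = 0.0679). Of 2 tested basophil genes, Il3ra passed as lower in IL-4 (-0.87, adjusted p = 0.00604). Cd200r3, the other, passed as lower without PBS library 5 in IL-13 (-0.91, adjusted p = 0.00375) and IL-31 (-0.71, adjusted p = 0.0222). Neutrophil scores were high in PBS libraries 1, 3 and 5 (2.55, 3.60 and 3.04), which include the pair highest in Il1rl1, and with that score as a covariate the values were -1.28 in IL-4 (adjusted p = 0.0224), -1.05 in IL-13 (adjusted p = 0.0425) and -0.98 in IL-31 (adjusted p = 0.0882). No tested gene of these lists was at the lowest value of the table in all libraries of a group.

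Skeletal muscle markers, 10 of 10 lower in IL-4 and in IL-13 and 0 of 10 called in IL-31, moved with the same groups. With the muscle score as a covariate the Il1rl1 log2 fold change was -1.75 in IL-4 and -1.40 in IL-13, as large as without it, but it passed neither in IL-4 (adjusted p = 0.248) nor in IL-13 (adjusted p = 0.345). In that fit 1 gene in IL-4 and 0 genes in IL-13 passed among all those tested. The muscle score and the groups separate the same libraries, so they cannot be told apart here.

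Il1rap (chromosome 16, 26581704 to 26730117, plus strand, protein-coding), the signalling chain shared by the receptors for IL-33, IL-1 and IL-36, did not pass against PBS in any group. It stood at 4.46, 5.22, 5.32, 5.52 and 5.10 log2 CPM in IL-4 libraries 1 to 5, and at 5.68, 4.89, 5.02, 5.38 and 5.29 in IL-13 libraries. In IL-31 libraries it stood at 5.38, 5.36, 5.57, 5.19 and 5.26, against 4.97, 4.79, 5.62, 5.37 and 5.70 in PBS libraries. IL-4 library 1 was the lowest of the 20 and the groups overlapped. The log2 fold change was -0.17 in IL-4 (95% interval -0.57 to 0.24, adjusted p = 0.607), -0.04 in IL-13 (-0.45 to 0.37, adjusted p = 0.909) and 0.06 in IL-31 (-0.35 to 0.47, adjusted p = 0.868). The annotation places an antisense gene, Gm20319, over the end of Il1rap with 552 shared exonic bases. The sources used here do not say whether counting used strand, and without it reads of the pair cannot be told apart.

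Il17rb (chromosome 14, 29996135 to 30008896, minus strand, protein-coding), the IL-25 receptor chain, lay lowest in IL-31 among the cytokine groups. It stood at 4.05, 4.17, 3.84, 3.74 and 4.11 log2 CPM in IL-4 libraries 1 to 5, and at 3.40, 4.01, 3.43, 3.91 and 3.67 in IL-13 libraries. In IL-31 libraries it stood at 3.35, 3.69, 3.45, 3.24 and 3.47, against 4.20, 3.97, 4.77, 4.00 and 2.84 in PBS libraries. All 5 IL-4 libraries lay above all 5 IL-31 libraries, and 4 of the 5 PBS libraries did too, while PBS library 5 was below every other library. The log2 fold change was 0.02 in IL-4 (95% interval -0.47 to 0.52, adjusted p = 0.958), -0.27 in IL-13 (-0.77 to 0.22, adjusted p = 0.438) and -0.52 in IL-31 (-1.01 to -0.02, limma adjusted p = 0.19).

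PBS library 5 was the lowest of the 20 in Il17rb, so leaving it out raises the PBS mean by construction. Without it, Il17rb was lower by more in IL-31, at -0.79 (limma adjusted p = 0.00486). In IL-13 Il17rb was at -0.55 (adjusted p = 0.02), and both passed. In IL-4 it was -0.25 and did not pass (adjusted p = 0.291). With the differentiated keratinocyte score as a covariate the Il17rb log2 fold change was 0.55 in IL-4, 0.38 in IL-13 and 0.11 in IL-31, none called, so its direction turned in IL-13 and IL-31. Il17rb overlaps Actr8, a chromatin remodelling gene on the opposite strand, with 141 shared exonic bases, and the same limit on strand holds. Actr8 did not pass in any comparison with PBS, with log2 fold changes of -0.13 in IL-4, -0.13 in IL-13 and -0.08 in IL-31. IL-17RA, the partner chain, is encoded by Il17ra, whose log2 fold changes were 0.03 in IL-4, -0.06 in IL-13 and -0.13 in IL-31, none called.

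Between the cytokines themselves none of the 6 genes passed, nor did any of the 16461 tested genes (0%). At an unadjusted p under 0.05 the count over all genes was 664 (4.03%) for IL-4 against IL-13, 1743 (10.6%) for IL-4 against IL-31 and 1200 (7.29%) for IL-13 against IL-31. Of the 6 genes, Il17rb alone had an unadjusted p under 0.05, in IL-4 against IL-31, where it was 0.54 higher on the log2 scale (95% interval 0.05 to 1.03, limma adjusted p = 0.405). In that comparison 3.91% of all tested genes had groups that did not overlap, as Il17rb had. The 4 groups share 1 spread per gene in the fit, so tests and intervals between cytokines also carry the spread of PBS. For Il17rb the SD was 0.701 in PBS, 0.186 in IL-4 and 0.169 in IL-31. Fitted on only the 10 libraries compared, 3 genes passed in IL-4 against IL-31, none of them among the 6. For Il1rl1 the interval for IL-4 against IL-13 was -1.18 to 0.51, and that for IL-13 against IL-31 was -0.96 to 0.72, so these intervals hold differences of over 1.5-fold in either direction for the second pair.

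Across the 20 libraries the members varied together only in part, as the plot of transcript pairs shows. Il33 and Il17rb had a Pearson r of -0.76 (Spearman rho -0.54), and -0.85 after the group means were removed. The r was -0.43 over 18 libraries when PBS libraries 3 and 5, the farthest from the median in Il33, were left out. Crlf2 and Il1rl1 had an r of 0.63 (rho 0.62), which was 0.23 over 18 libraries without IL-4 library 2 and PBS library 5. Il33 and its receptor gene Il1rl1 had an r of 0.20 and a rho of -0.27, and the r was -0.49 without PBS libraries 3 and 5, so the sign of this relation rests on those libraries. Of the 15 pairs that can be formed, these are the ones drawn, and each is a description of libraries that share groups and tissue make-up.

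**Figure D3:**
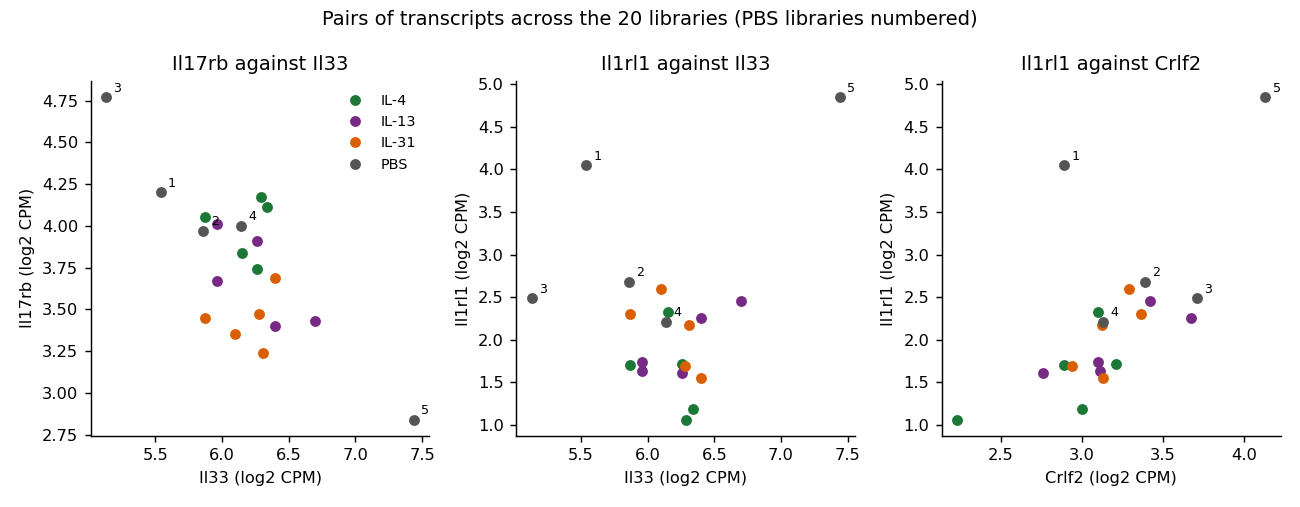
Level of 1 transcript against another in log2 CPM over 20 libraries, with colours for IL-4, IL-13, IL-31 and PBS and numbers on the PBS libraries. PBS library 5 sits alone in a corner of each panel and PBS library 3 at the opposite end of the Il17rb against Il33 panel.

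The genes whose levels were most like those of each member over the 20 libraries were these, by Pearson r. For Il1rl1 they were Arpc1b (0.925), Rrbp1 (0.908), Tmsb10 (0.895) and Hacd4 (0.886). For Il33 they were B4galt1 (0.89), Ap2m1 (0.888), Ywhae (0.885) and Eif2s3x (0.884). For Il17rb they were Ap1g2 (0.929), Klhdc8b (0.927), Col7a1 (0.927) and Pex6 (0.92), where Col7a1 encodes the collagen of the anchoring fibrils that basal keratinocytes make. Like Il17rb, these 4 genes were lowest of the 20 libraries in PBS library 5 and highest in PBS library 3. Their r without those libraries was not computed. For Crlf2 they were Csf1 (0.848), a growth factor of macrophages, Pfkfb3 (0.841), Samd9l (0.828) and Dynlt1b (0.824). For Tslp they were Hpgds (0.845), a prostaglandin D synthase, Tent5a (0.822), the cornified envelope gene Sprr2e (0.82) and Lgals7 (0.817), a galectin of stratified epithelia. For Il1rap they were Stk17b (0.795), the chemokine Ccl6 (0.786), Brip1 (0.78) and Ppt1 (0.779). No other member of the set was among the 4 named for any of the 6 genes.

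Il1rl1 lies in a cluster of receptor genes of the IL-1 family on chromosome 1 that runs from Il1r2 (start 40074079) to Il18rap (end 40551705). None of the other 5 genes of the cluster passed in any comparison with PBS, as the plot of the receptor cluster shows. Il1r2, the decoy receptor for IL-1, had log2 fold changes of -0.40 in IL-4, -0.48 in IL-13 and -0.29 in IL-31, and Il1r1, the signalling receptor, of -0.05, -0.10 and -0.07 in the same order. Il1rl2, the IL-36 receptor gene next to Il1rl1, had 0.29 in IL-4, 0.24 in IL-13 and 0.15 in IL-31, while Il18r1, on its other side, had -0.30, -0.35 and -0.04. Il18rap had values of -1.32, -1.11 and -0.85, the nearest in size to those of Il1rl1, with intervals that included 0: its libraries ranged from 0.38 to 2.61 log2 CPM in IL-4, 0.15 to 3.77 in IL-13, -0.10 to 3.02 in IL-31 and 0.16 to 4.45 in PBS.

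**Figure D4:**
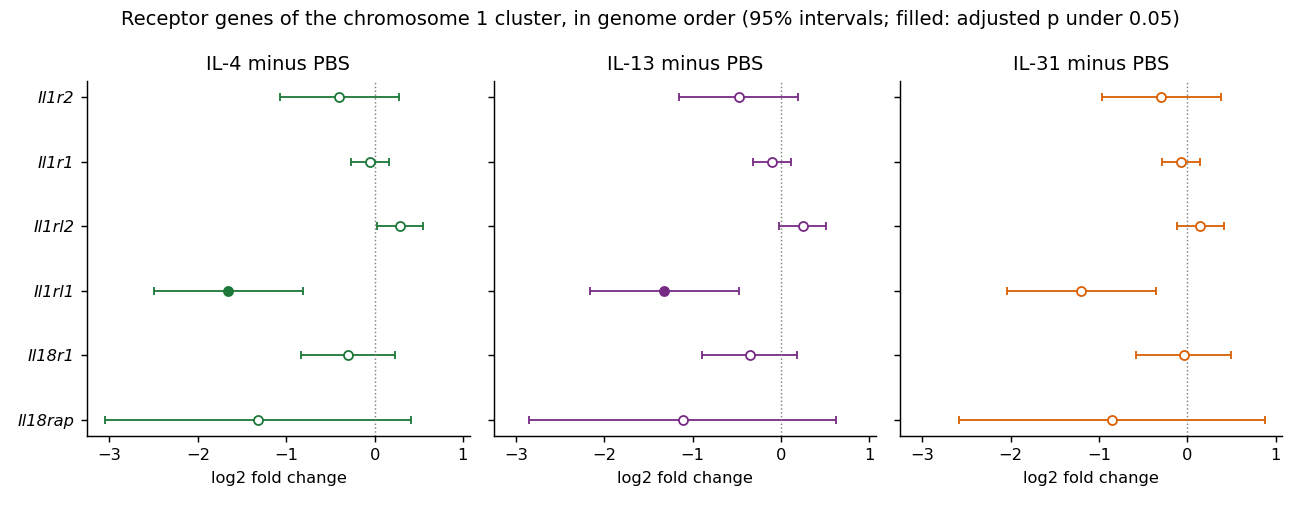
Log2 fold change against PBS (horizontal axes) with 95% intervals for the 6 receptor genes of the chromosome 1 cluster, listed in genome order, in IL-4, IL-13 and IL-31. Filled symbols have an adjusted p under 0.05, and only Il1rl1 is filled, at -1.65 in IL-4 and -1.32 in IL-13; the interval of Il18rap is the widest.

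With all libraries, genes around the TSLP receptor did not pass the test. Of 10 genes of TSLP receptor signalling, which include Il7r, Jak1, Jak2, Stat5a, Stat5b and the target Cish, none passed in IL-4, IL-13 or IL-31, and the median log2 fold changes were -0.12, -0.03 and -0.05, against medians over all tested genes of -0.02, -0.03 and -0.04. Il7r, the partner chain of CRLF2, had log2 fold changes of -0.67 in IL-4 (adjusted p = 0.183), -0.75 in IL-13 (adjusted p = 0.124) and -0.47 in IL-31 (adjusted p = 0.394). Il7r stood at 4.08 log2 CPM in PBS library 5 and at 2.12 to 2.42 in the other PBS libraries, and without PBS library 5 the values were -0.32 in IL-4, -0.40 in IL-13 and -0.12 in IL-31. In that setting 3 of the 10 passed in IL-13: the kinase genes Jak1 (0.40, adjusted p = 0.0175) and Pim1 (0.52, adjusted p = 0.0216) rose, and Bcl2, a survival gene, fell (-0.64, adjusted p = 0.0131). Jak1 rose (0.44, adjusted p = 0.0164) and Bcl2 fell (-0.53, adjusted p = 0.0468) in IL-31 as well, and none passed in IL-4. Over all tested genes, 21.6%, 28.6% and 18.4% passed without PBS library 5 in IL-4, IL-13 and IL-31.

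TSLP is known for activating dendritic cells, and 5 of 8 listed dendritic cell genes that respond to it were tested. Cd40, a costimulatory receptor, fell in IL-4 (-1.61, adjusted p = 0.0021) and in IL-13 (-1.22, adjusted p = 0.00876) and was at -0.71 in IL-31 (adjusted p = 0.158). Cd80, which encodes a costimulatory ligand, fell in IL-4 (-1.97, adjusted p = 0.0345), and Cd86, which encodes another, fell in IL-13 (-0.78, adjusted p = 0.0283). None of the 5 rose, and their median was -0.58 in IL-4, -0.78 in IL-13 and -0.16 in IL-31. Of all tested genes, 9.63% were called lower in IL-4 and 9.8% in IL-13. Of 9 tested dendritic cell markers, 1 was higher and none lower in each of the 3 groups with all libraries. The medians of those markers were -0.17, -0.18 and 0.20. Without PBS library 5, 1 of the 9 was higher and 1 lower in IL-4 and in IL-13. In that setting 21.6% and 28.6% of all tested genes passed. Which cells carried the RNA of Cd40, Cd80 and Cd86 was not tested. Without PBS library 5 neither Cd80 (adjusted p = 0.0677) nor Cd86 (adjusted p = 0.056) passed, and without PBS libraries 1, 2 and 3 Cd40 passed in IL-4 (-1.49, adjusted p = 0.0372) and not in IL-13 (-1.10, adjusted p = 0.138). Ccl17, Tnfsf4 and Pdcd1lg2 were not analysed here.

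Upstream of Tslp, 16 of 18 genes known to regulate it in keratinocytes were tested, of which 7 rose in IL-4, 6 in IL-13 and 3 in IL-31, and none fell. Of all tested genes, 8.22%, 9.94% and 5.18% were called higher in IL-4, IL-13 and IL-31. The counts of the 16 without PBS library 5 were 8, 7 and 6, where 21.6%, 28.6% and 18.4% of all tested genes passed in either direction. With all libraries the median log2 fold change of the 16 was 0.33 in IL-4, 0.35 in IL-13 and 0.22 in IL-31. The list was not split by the direction in which a gene acts on Tslp, so its counts and medians give no direction for Tslp. F2rl1, which encodes the protease receptor PAR2, rose by 0.66 in IL-4 (adjusted p = 0.0126), 0.73 in IL-13 (adjusted p = 0.00671) and 0.64 in IL-31 (adjusted p = 0.0327). Klk5, which encodes an epidermal protease that activates PAR2, rose by 1.66 in IL-4 (adjusted p = 0.0378), 2.01 in IL-13 (adjusted p = 0.0136) and 1.97 in IL-31 (adjusted p = 0.0352). The retinoid receptor genes Rxra and Rarg rose in IL-4 by 0.50 and 0.39 and in IL-13 by 0.56 and 0.40, Rxra also in IL-31 by 0.51, and Notch1, whose loss in mouse skin raises TSLP, rose by 0.39 in IL-4 (adjusted p = 0.011) and 0.39 in IL-13 (adjusted p = 0.00997). Tslp itself, as given above, had log2 fold changes of -0.41 to -0.32 in the 3 groups.

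These rises moved with the differentiated keratinocyte markers, of which 7, 9 and 8 of 12 were higher in IL-4, IL-13 and IL-31. Klk5 stood at 4.23, 2.94 and 2.68 log2 CPM in PBS libraries 1, 2 and 3 and at 5.93 and 6.35 in PBS libraries 4 and 5. Without PBS libraries 1, 2 and 3 the counts were 2 of 16 in IL-4, 1 in IL-13 and 0 in IL-31, where 7.29%, 2.34% and 0% of all tested genes passed, and the log2 fold change of Klk5 was -0.05, 0.30 and 0.26. Rarg passed in that setting, by 0.40 in IL-4 (adjusted p = 0.0264) and 0.41 in IL-13 (adjusted p = 0.0376).

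Downstream of ST2, 18 genes of IL-33 receptor signalling were tested, of which 3 rose and 2 fell in IL-4, 4 rose and 1 fell in IL-13, and 3 rose and none fell in IL-31. Those are 5, 5 and 3 of 18, where 17.8%, 19.7% and 6.38% of all tested genes passed. The IL-31 count without PBS library 5 was 5 higher and 1 lower, where 18.4% of all tested genes passed. Tollip, an inhibitory adaptor of IL-1 family receptors, rose by 0.74 in IL-4 (adjusted p = 0.00657), 0.81 in IL-13 (adjusted p = 0.00375) and 0.86 in IL-31 (adjusted p = 0.0193). The kinase gene Map3k7 (TAK1) rose by 0.24, 0.26 and 0.24 and its adaptor gene Tab2 by 0.29, 0.32 and 0.28 in IL-4, IL-13 and IL-31. Nfkbiz, an NF-κB cofactor induced by IL-1 family cytokines, fell by 0.82 in IL-4 (adjusted p = 0.00721) and by 0.71 in IL-13 (adjusted p = 0.0137), and was at -0.63 in IL-31 (adjusted p = 0.0532). The median of the 18 genes was 0.11, 0.16 and 0.14. Without PBS libraries 1, 2 and 3 none of the 18 passed in any comparison, and Tollip was at 0.23, 0.29 and 0.35. The genes and both settings are in the plot of pathway genes.

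**Figure D5:**
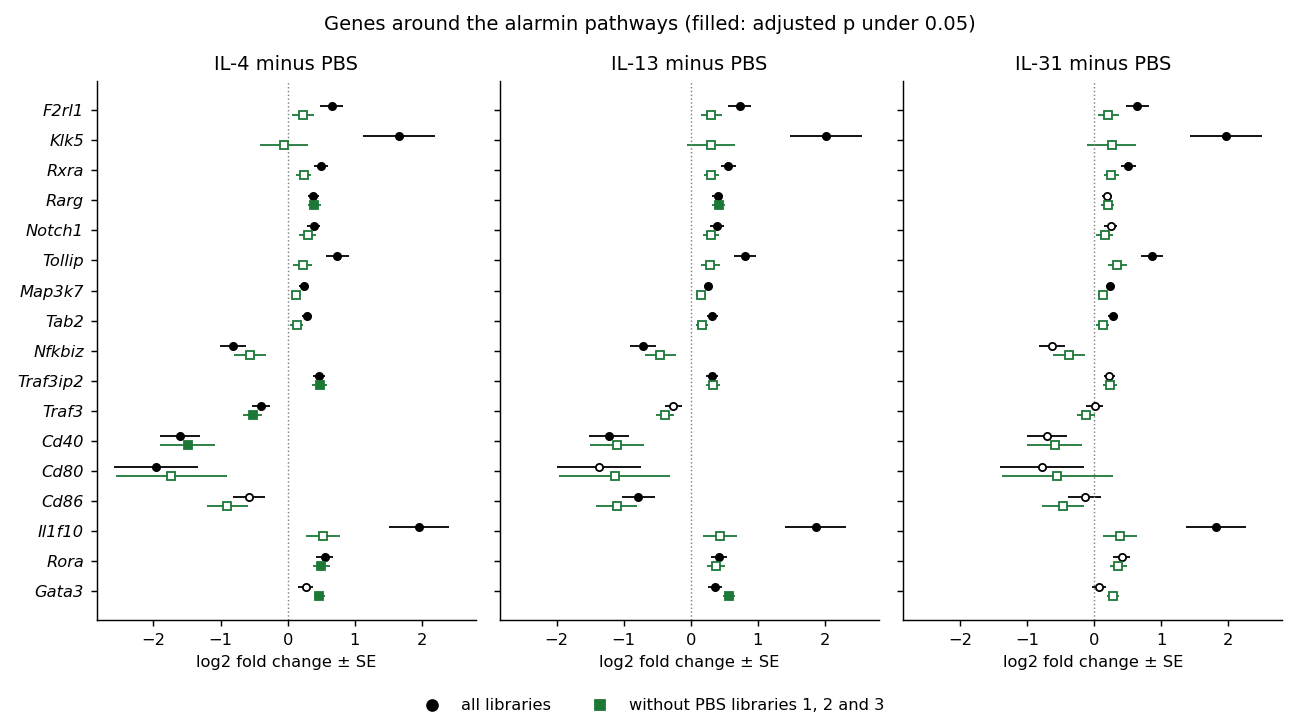
Log2 fold change ± SE against PBS (horizontal axes) for the pathway genes named in the text, 1 panel per cytokine, with all libraries (circles) and without PBS libraries 1, 2 and 3 (squares); filled symbols have an adjusted p under 0.05. Klk5, Tollip and Il1f10 are filled to the right of 0 in all panels with all libraries and open and nearer to 0 without the 3 PBS libraries, while Cd40, Rarg and Traf3ip2 are filled in IL-4 in both settings.

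At Il17rb's side, 7 genes of the IL-25 pathway were tested, of which 1 rose and 1 fell in IL-4, 1 rose in IL-13 and none passed in IL-31. Of all tested genes, 17.8% passed in IL-4 and 19.7% in IL-13 with all libraries. Without PBS library 5, 21.6% and 28.6% passed. Traf3ip2, which encodes the adaptor Act1, rose by 0.47 in IL-4 (adjusted p = 0.00186) and 0.32 in IL-13 (adjusted p = 0.0139), and Traf3, an inhibitor of IL-17 receptor signalling, fell by 0.40 in IL-4 (adjusted p = 0.0386). Traf3 was at -0.32 in IL-4 without PBS library 5 and did not pass (adjusted p = 0.0792), and in that setting Traf5 passed as lower in IL-13 (-0.45, adjusted p = 0.0408). Traf3ip2 was at 0.33 in IL-13 without PBS libraries 1, 2 and 3 and did not pass (adjusted p = 0.0952). Il25 was not analysed here. Among 11 tested genes of the wider IL-1 family, Il1f10, which encodes IL-38, a cytokine of the epidermis, was the 1 that passed with all libraries, with rises of 1.96 in IL-4 (adjusted p = 0.00658), 1.86 in IL-13 (adjusted p = 0.00805) and 1.82 in IL-31 (adjusted p = 0.0269). Without PBS libraries 1, 2 and 3 its values were 0.53, 0.43 and 0.39 and none passed. Il18, another IL-1 family cytokine, also rose without PBS library 5, by 0.90 in IL-4 (adjusted p = 0.0334) and 1.04 in IL-13 (adjusted p = 0.0128), as did Il1rl2, the IL-36 receptor gene, by 0.37 in IL-4 (adjusted p = 0.0383).

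Of 8 tested genes downstream in type 2 cells, Rora, a transcription factor of group 2 innate lymphoid cells that keratinocytes also express, rose by 0.55 in IL-4 (adjusted p = 0.00577) and 0.42 in IL-13 (adjusted p = 0.0218). Gata3 rose by 0.36 in IL-13 (adjusted p = 0.0226). These are the same Rora and Gata3 calls as in the list of T cells and innate lymphoid cells. Of all tested genes, 8.22% were called higher in IL-4 and 9.94% in IL-13. No gene of this list passed in IL-31 with all libraries, and none fell in any of the 3. Rora passed in IL-31 without PBS library 5, as given above. When PBS libraries 1, 2 and 3 were left out, Rora did not pass in IL-13 (0.37, adjusted p = 0.121) and Gata3 passed in IL-4 (0.47, adjusted p = 0.00929). The medians were -0.56, -0.39 and -0.19 in IL-4, IL-13 and IL-31, of opposite sign to the genes that passed.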

How the data were processed

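The authors deposited 1 table of 16669 genes in 20 ear libraries, in log2 CPM, made from total RNA with the NEBNext Ultra II kit, per the labels' protocols. Per the submitters' processing notes, the build was GRCm38 and edgeR was used. The aligner, the read counter and any use of strand in counting: not given in the sources used here. The lowest value, -2.68, was the same in every library and stands for 0.156 CPM added before the log, which makes fold changes of low genes too small. Of the low values of a library, 79.3 to 86.8% were whole multiples of a step within 0.02 reads, which gave effective sizes of 6.1 to 23.7 M reads. Because the rest were not whole, reads were not recovered and no count test was run. At these sizes 3 reads equal 0.127 to 0.492 CPM.

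Genes with log2 CPM of at least 0 in at least 5 of 20 libraries were kept (16461 of 16669). In R 4.3.3, limma 3.58.1 (lmFit, contrasts, eBayes with trend) was fitted to all 20 libraries with 1 term per group, and calls were made on two-sided p-values adjusted by Benjamini-Hochberg, at under 0.05. The scripts were tested on simulated data first. Each cytokine was compared with PBS and with the other cytokines, 6 comparisons in all. The planned test allowed for linear values or counts as well, and its rule for log2 values was followed. Symbols and coordinates came from GENCODE M21 for GRCm38, which matched 16644 identifiers. A list score is the mean over genes of log2 CPM centred per gene. A summed level adds linear CPM.

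The members and gene lists were chosen with earlier results of these data known. Named genes are the 6 members, up to 4 called genes per list and comparison with PBS by smallest p, and the 4 protein-coding genes with the highest Pearson r with each member. The partner chains Il7r and Il17ra, the neighbours of Il1rl1 and Actr8 were named for their position or role. Il3ra, genes named only for calls with libraries left out, and the genes under other observations were named after their values were seen. Alternatives were other offsets, filters, normalization, spread estimates, a replicate block, score covariates and left-out libraries. Tables and figures were made in python 3.11.15 with pandas 2.3.3, numpy 2.4.6, matplotlib 3.10.9 and scipy 1.17.1.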

Additional observations from a re-analysis of the deposited data

Results flagged for a closer look

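Of 220 groups of 5 libraries (55 named genes in 4 groups), 10 held a library whose gap to its nearest neighbour was over 0.71 of the group's range, where chance flags about 1 in 20 groups. None of the 10 was in the 6 alarmin and receptor genes. All levels are in log2 CPM.

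Il7r, the partner of Crlf2, stood at 4.08 in PBS library 5, above the other PBS libraries (2.12 to 2.42), the library that was also highest of 20 for Crlf2, Il33, Il1rl1 and Il1rap. In IL-13 library 1, 3 genes stood above the rest of their group: Il1r2 at 7.20 (others 5.99 to 6.20), Il18rap at 3.77 (others 0.15 to 1.16) and Samd9l at 4.29 (others 2.92 to 3.16). The neutrophil score of that library was 2.89, the highest of the IL-13 group, and its part in these values was not tested. Il1r2 is itself 1 of the 9 genes of that score, so Il1r2 and the score are not separate values, here or in IL-31 library 3. In IL-31 library 3, Il1r2 stood at 7.18 (others 6.26 to 6.37), with the highest neutrophil score of that group, 2.61, and Il18r1 at 0.74 (others 1.45 to 1.62). Nfkbiz stood at 6.07 in IL-31 library 4 (others 5.21 to 5.38). Tollip stood at 7.24 in IL-13 library 2 (others 7.67 to 7.77), Pfkfb3 at 3.86 in IL-4 library 2 (others 4.22 to 4.33) and Klhdc8b at 5.12 in IL-4 library 3 (others 5.54 to 5.71).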

How the results depend on the processing

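Il1rl1 stayed lower than in PBS under all 27 alternatives in each comparison. In IL-4 23 kept the call and 4 lost it, in IL-13 17 kept it and 10 lost it, and in IL-31 26 kept it uncalled and 1 called it. Leaving out 1 library at a time, its log2 fold change was -1.92 to -1.26 in IL-4, -1.58 to -0.92 in IL-13 and -1.46 to -0.80 in IL-31. The call was lost when only the 10 libraries compared were fitted (adjusted p = 0.0539 in IL-4 and 0.101 in IL-13), and in IL-13 with quantile normalization (-1.08, adjusted p = 0.0759), the differentiated keratinocyte score (adjusted p = 0.062) and without PBS libraries 1, 2 and 3 (adjusted p = 0.0897). Array weights called Il17rb in IL-31 (-0.63, adjusted p = 0.0441). Among the 27 alternatives, values that had not passed changed sign against PBS for Il33 (3 in IL-4, 2 in IL-13, 3 in IL-31), Il17rb (8, 2 and 2), Il1rap (2, 7 and 4), Tslp (0, 1 and 0) and Crlf2 (0, 1 and 0).

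Of the 6 genes, the number called in IL-4 was 0 with only the 10 libraries, the muscle or mast cell score as a covariate, or without PBS libraries 1 and 5, and 1 to 2 leaving out 1 library. In IL-13 it was 0 with quantile normalization, only the 10 libraries, the muscle, differentiated keratinocyte or mast cell score, or without PBS libraries 1, 2 and 3, and 0 to 3 leaving out 1 library. Without PBS libraries 1 and 5 it was 1, Il17rb (-0.56, adjusted p = 0.036) in place of Il1rl1. In IL-31 it was 1 with array weights or without PBS libraries 1 and 5, and 0 to 2 leaving out 1 library. Between cytokines it was 0 throughout. 

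Counts over all tested genes were 2938 in IL-4, 3250 in IL-13 and 1050 in IL-31. With only the 10 libraries they were 1269, 1134 and 0, with the muscle score 1, 0 and 3, with the mast cell score 414, 0 and 0, and without PBS libraries 1, 2 and 3 1200, 385 and 0. The differentiated keratinocyte score gave 8 in IL-13 and 0 in IL-31, and in IL-31 array weights gave 1667 and leaving out PBS libraries 1 and 5 gave 1941. Leaving out 1 library gave 1885 to 3553, 1995 to 4703 and 0 to 3029. For IL-4 against IL-31 the count was 3 with only the 10 libraries, 692 with array weights, 2 with the replicate block, 236 with the neutrophil score and 0 to 304 leaving out 1 library. For IL-13 against IL-31 it was 535 with array weights, 122 with the neutrophil score and 0 to 297. For IL-4 against IL-13 it was 0 throughout. The cause of these moves was not tested.

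Of 30 same-numbered pairs of libraries, 10 had a correlation of deviations over 0.1 (range -0.24 to 0.49). Pairs with different numbers were not set beside them, so this cannot show whether library numbers pair the samples. With the replicate block the Il1rl1 adjusted p was 0.00825 in IL-4, 0.0243 in IL-13 and 0.071 in IL-31, and no call on the 6 genes changed. Depth limits Tslp and Il1rl1 most, at a median of 35 and 55.9 reads per library, counting error only.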

Other observations

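Markers of other cells known to make or sense IL-33 had these values. Of 9 endothelial genes, 2 fell in IL-4, 4 in IL-13 and none in IL-31, and their summed level was 83.1 to 152 CPM in IL-4, 80.7 to 147 in IL-13, 141 to 196 in IL-31 and 132 to 244 in PBS. Kdr, the main VEGF receptor gene of endothelium, fell by 0.71 in IL-13 (adjusted p = 0.0247), and Tek, the angiopoietin receptor gene, by 1.01 in IL-4 (adjusted p = 0.0127) and 1.00 in IL-13 (adjusted p = 0.0119). The endothelial counts without PBS library 5 were 1 in IL-4 and 4 in IL-13, and without PBS libraries 1, 2 and 3 they were 2 and 2. Of 9 macrophage genes, 5 fell in IL-4 and 4 in IL-13, among them the complement gene C1qa, by 1.00 in IL-4 and 0.78 in IL-13, and none passed in IL-31. Of all tested genes, 9.63%, 9.8% and 1.2% were called lower in IL-4, IL-13 and IL-31. Of the macrophage genes, 5 were lower in IL-4 and 1 in IL-13 (Lyz2, -0.71, adjusted p = 0.0353) without PBS library 5. Leaving out PBS libraries 1 and 5 gave 1 in each group, and leaving out PBS libraries 1, 2 and 3 gave 8 in IL-4 and 4 in IL-13. PBS library 5 had the highest summed macrophage level of the 20 libraries, 1057 CPM. Of 8 fibroblast genes 1 fell in IL-4 (Dpt, by 0.84, adjusted p = 0.0452) and 1 in IL-13 (Col1a1, by 0.72, adjusted p = 0.0467), and PBS library 5 was again the highest, at 11629 CPM. Neither Dpt in IL-4 (adjusted p = 0.0625) nor Col1a1 in IL-13 (adjusted p = 0.0951) passed without PBS library 5. Leaving out PBS libraries 1, 2 and 3 gave 7 lower fibroblast genes in IL-4 and 3 in IL-13. Of 7 basal keratinocyte genes, Trp63 and Col17a1 rose in IL-4, and Trp63 alone passed in IL-13 and in IL-31. The shares of all tested genes called higher were 8.22%, 9.94% and 5.18% in the 3 groups. When PBS library 5 was left out, 2 of the 7 rose in each group, and without PBS libraries 1, 2 and 3 none of the 7 passed. Over all tested genes, 21.6%, 28.6% and 18.4% passed in IL-4, IL-13 and IL-31 without PBS library 5. Without PBS libraries 1, 2 and 3, 7.29%, 2.34% and 0% passed. Without PBS libraries 1 and 5, 17.5% passed in IL-4 and 24.1% in IL-13. The genes of this paragraph were named after their values were seen, and their part in the alarmin values was not tested.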
